A study of Mus musculus with 16 samples.

Results

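Mitochondrial DNA of the mouse carries 37 genes, and their transcripts were followed here in hearts with and without the long noncoding RNA Cardinal, after pressure overload or a sham operation. The members were chosen by name: every row of the count table whose Ensembl identifier maps to a symbol starting with mt-, which gave 13 mRNAs, 2 rRNAs and 22 tRNAs, 37 of the 55487 genes in the table. The samples were the heart apex of 16 male mice, 4 per group. Control (Ctrl) mice were wild type and KO mice carried a knockout of Cardinal (Gm12295) made with CRISPR/Cas9, for which the sources used here give neither the deleted interval nor the number of founder lines. Mice of each genotype had transverse aortic constriction (TAC), in which a ligature narrows the aorta and the left ventricle pumps against a raised pressure, or the same surgery without the ligature (sham), and tissue was taken 4 weeks later. Groups are named by genotype and operation, and libraries by their group and a replicate number. The labels give neither the strain nor the age of the mice.

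Each mitochondrion holds many copies of a small circular genome. Both of its strands are transcribed almost from end to end into long precursor RNAs, and the tRNAs that stand between the other genes are cut out to release the rRNAs and mRNAs. The mRNAs encode core subunits of respiratory complexes I, III and IV and of the ATP synthase (complex V), the remaining subunits of which come from nuclear genes, and the rRNAs and tRNAs serve the mitochondrial ribosome that translates them. The heart depends on these complexes for nearly all of its ATP, and its mitochondrial transcripts are among the most abundant of any tissue. In the genome annotation used here, 12 mRNAs, 2 rRNAs and 14 tRNAs lie on the plus strand, the products of heavy-strand transcription, and mt-Nd6 and 8 tRNAs lie on the minus strand, the products of light-strand transcription.

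Libraries were made from poly(A)-selected RNA and held 53169437 to 79404714 counts each. The cardiomyocyte marker list summed to 58689 to 71158 CPM, while lymphocyte, adipocyte, skeletal muscle and atrial lists each stayed at or below 6.16 CPM. CPM are counts scaled to the library total. That total is unscaled for sums over gene lists and TMM-adjusted for single genes. The deleted gene had 17 to 35 counts in 7 of the KO libraries and 173 to 456 counts in the 8 Ctrl libraries. The library labelled KO TAC 4 had 377 counts of it, which goes against its label. Counts of called members, and of called list genes where they change, are therefore also given without this library. So are single values where their call changes. Counts by unadjusted p and of members without overlap between groups are given with all libraries only. Numbers of the animals in the titles begin with 33 for Ctrl sham 4 and KO sham 1, 2 and 3 and for no TAC animal, and begin with 25 for Ctrl TAC 2, 3 and 4 and for the library labelled KO TAC 4. The labels do not say what these runs of numbers stand for.

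Genes of the mitochondrial chromosome are packed so tightly that some share bases with a neighbour, and the stretches below are shown because the values of these genes depend on it. Sequences are from the GENCODE M21 transcripts (GRCm38), 5′ to 3′ on the strand of the gene. The 5 tRNAs shown are those with the largest fall after TAC in Ctrl (mt-Tw) and in KO (mt-Ti), the partner that overlaps mt-Ti (mt-Tq), a light-strand tRNA (mt-Ty) and one that stands alone between mRNAs (mt-Tg), and capitals mark bases that lie in another gene as well.
mt-Ti (isoleucine tRNA, chrM:3706-3774, plus): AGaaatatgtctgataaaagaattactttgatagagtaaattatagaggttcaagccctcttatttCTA
mt-Tq (glutamine tRNA, chrM:3772-3842, minus): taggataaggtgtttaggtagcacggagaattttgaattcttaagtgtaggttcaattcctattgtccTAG
mt-Tw (tryptophan tRNA, chrM:4950-5016, plus): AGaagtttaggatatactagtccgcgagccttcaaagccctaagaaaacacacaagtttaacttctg
mt-Ty (tyrosine tRNA, chrM:5260-5326, minus): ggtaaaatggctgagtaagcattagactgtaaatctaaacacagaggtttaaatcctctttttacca
mt-Tg (glycine tRNA, chrM:9391-9458, plus): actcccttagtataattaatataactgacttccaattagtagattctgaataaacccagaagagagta

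The opening AG of mt-Ti is also the end of mt-Nd1, the opening AG of mt-Tw is the end of mt-Nd2, and the closing CTA of mt-Ti and TAG of mt-Tq are the same 3 base pairs read from opposite strands. The tRNA genes are 59 to 75 bases long and the reads were 150 bases, so a full-length read counted for a tRNA also covers its neighbours. A tRNA value here is therefore a measure of RNA that spans the tRNA gene, joined or not to the neighbouring transcript, and not of the mature tRNA alone. Counting by strand was not given in the sources used here, and for the 9 minus-strand genes the transcript cannot be told from RNA of the opposite strand.

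Stretches are shown for 2 mRNA genes whose ends overlap the next mRNA, with the shared bases in capitals. Not shown are the 1 base that mt-Atp6 shares with mt-Co3 and the 14 bases that mt-Nd5 shares with mt-Nd6 on the opposite strand. In addition, 3 mRNA genes end in an incomplete last codon, shown as a capital T. The poly(A) tail is known to complete it into a stop codon.
mt-Atp8 (end, chrM:7912-7969, plus): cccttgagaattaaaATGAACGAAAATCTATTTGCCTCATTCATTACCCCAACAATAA
mt-Nd4l (end, chrM:10152-10173, plus): tctcaacctactacaATGCTAA
mt-Co3 (end, chrM:9367-9390, plus): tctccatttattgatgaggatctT
mt-Nd4 (end, chrM:11521-11544, plus): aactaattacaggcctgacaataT
mt-Cytb (end, chrM:15265-15288, plus): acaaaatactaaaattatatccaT

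In the first of these stretches the start codon of mt-Atp6 opens the 43 bases that it shares with mt-Atp8, and in the second that of mt-Nd4 opens the 7 bases it shares with mt-Nd4l. Each pair is known to be carried on 1 dicistronic mRNA, so the separate values of its members are not independent.

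Copies of mitochondrial DNA in the nuclear genome share reads with several members. The annotation holds 11 pseudogenes that are at least 95% identical to a mitochondrial gene over at least 100 bases, and their counts amounted to 23.5% to 26.6% of the mitochondrial counts of a library. A block of 7 lies at chr1:24611535-24616197, and its Gm28437 is 100% identical to mt-Co3 over 783 bases and had 99.1% as many counts as mt-Co3 itself. For Gm10925 and mt-Atp6 the figure was 99.2%, for Gm28661 and mt-Co2 93.6%, for Gm10222 and mt-Nd4l 93.4%, for Gm28438 and mt-Nd3 108%, for Gm28439 and mt-Nd4 34.8%, and for Gm29216 and mt-Co1 10.2%. Reads over such identical stretches cannot be assigned to a gene, so the levels of these 7 mRNAs are uncertain and are also given with the copies added. Copies of mt-Nd2 and mt-Nd5 had 0.230% and 0.117% as many counts as these genes.

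Mitochondrial genes took 26.8% to 28.8% of all counts in the 8 sham libraries and 21.9% to 27.0% in the 8 TAC libraries. Ctrl sham libraries 1 to 4 were at 28.8%, 27.5%, 26.8% and 27.2%, and KO sham libraries 1 to 4 at 27.9%, 28.1%, 27.1% and 28.4%. Ctrl TAC libraries were at 24.2%, 21.9%, 27.0% and 23.7%, and KO TAC libraries at 23.9%, 24.0%, 23.4% and 25.1%. All KO TAC libraries lay below all KO sham libraries, whereas Ctrl TAC 3 lay within the Ctrl sham range and Ctrl TAC 2 was the lowest of the 16.

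The share fell from 27.9% ± 0.544 to 24.1% ± 0.699 in KO hearts (SD, n = 4), a difference of -3.75 percentage points (exact two-sided permutation p = 0.0286, the smallest that 4 against 4 libraries can give, and 0.114 adjusted over the 4 comparisons). In Ctrl hearts it was 27.6% ± 0.860 in sham and 24.2% ± 2.07 in TAC (SD, n = 4), a difference of -3.37 points (exact permutation p = 0.0571, adjusted 0.114). Neither difference passes 0.05 after adjustment, which 4 against 4 libraries allow only if at least 3 of the 4 comparisons reach the smallest p. KO and Ctrl differed by 0.288 points in sham and -0.0971 points in TAC (exact permutation p = 0.629 and 0.886), less than the spread between libraries, and the genotype by surgery interaction was -0.385 points (permutation p = 0.760). Without the library labelled KO TAC 4 the KO difference was -4.08 points, and without Ctrl TAC 3 the Ctrl difference was -4.28 points. With the nuclear copies added the share was 33.2% to 36.1% in sham and 27.2% to 33.8% in TAC libraries.

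**Figure D1:**
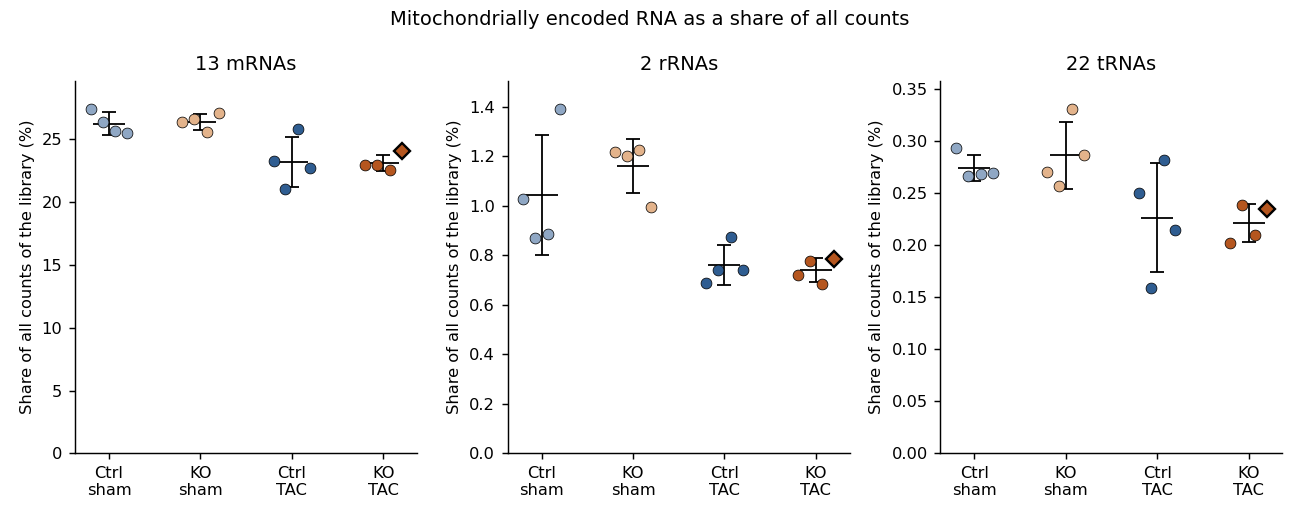
Percent of all counts taken by the mitochondrial mRNAs, rRNAs and tRNA genes, on axes from 0, 1 point per library in the 4 groups, with bars for the group mean ± SD; the diamond is the library labelled KO TAC 4. In each panel the 4 KO TAC libraries sit below the 4 KO sham libraries, while the mRNA share of Ctrl TAC libraries reaches 25.8%, within the Ctrl sham range.

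The mRNAs made up most of this share, at group means of 26.3% (Ctrl) and 26.4% (KO) of all counts after sham and 23.2% and 23.1% after TAC. The rRNAs took 1.04% ± 0.243, 1.16% ± 0.110, 0.760% ± 0.0796 and 0.742% ± 0.0485 in the same order (SD, n = 4). The tRNA genes took 0.274%, 0.286%, 0.227% and 0.221%. In KO hearts each class was lower in all 4 TAC libraries than in all 4 sham libraries (exact permutation p = 0.0286 for each, adjusted 0.114). Fewer cardiomyocytes and less mitochondrial RNA per cardiomyocyte cannot be told apart in bulk tissue.

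Levels of the mRNAs differed widely among themselves although all 12 heavy-strand mRNAs come from the same precursor. Per kilobase of gene, mt-Co1 was the most abundant in Ctrl sham hearts, at 59043 CPM per kb, followed by mt-Cytb at 29526, mt-Co2 at 24289.5, mt-Nd1 at 23516 and mt-Atp6 at 20679 CPM per kb. The lowest mRNAs were mt-Nd4l, at 9211 CPM per kb, and mt-Nd3, at 5714 CPM per kb. The highest exceeded the lowest by 10.3 times, and by 5.63 times once the nuclear copies were added, when the order was mt-Co1 (66859 CPM per kb), mt-Co2 (46344), mt-Atp6 (41142), mt-Co3 (39695) and then mt-Cytb, and mt-Nd4l stood at 17862 CPM per kb. The ranks of the genes with copies are therefore uncertain. The rRNAs stood below every mRNA, at 4897 CPM per kb for mt-Rnr2 and 3297 for mt-Rnr1, in libraries selected for poly(A) tails, which mitochondrial rRNAs carry only in short form. The light-strand mRNA mt-Nd6, at 13252 CPM per kb, and the heavy-strand mRNA mt-Nd5, at 12943, were neighbours in this order and did not differ beyond the spread between libraries.

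**Figure D2:**
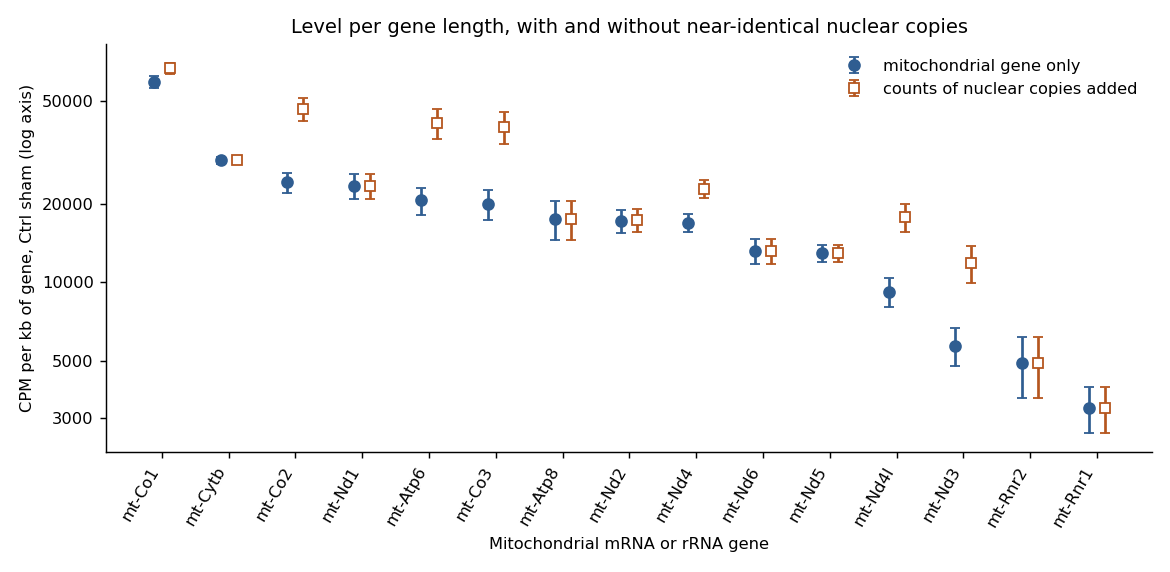
Level of the 13 mRNAs and 2 rRNAs in CPM per kilobase of gene in Ctrl sham hearts on a log axis, as counted and with the counts of nuclear copies added, mean ± SD of 4 libraries. mt-Co1 is highest at 59043 CPM per kb as counted, and the copies raise mt-Co2, mt-Atp6, mt-Co3, mt-Nd4l and mt-Nd3 most.

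Whether pressure overload lowers mitochondrial transcripts was asked in each genotype. All 37 estimates were below 0 in both genotypes with all libraries and TMM scaling, and no member rose. Among the 28 other settings, 8 put at least 1 member above 0 in Ctrl (mt-Nd3, mt-Td, mt-Tk, mt-Tr, mt-Ts1 or mt-Tt, to at most 0.11 on the log2 scale) and 3 did in KO (mt-Tt, at most 0.08), and none of these was called. In Ctrl hearts 15 of 37 members fell (edgeR quasi-likelihood test, Benjamini-Hochberg adjusted p under 0.05), against 9.60% of the 18275 genes tested that fell and 20.0% that changed in either direction. In KO hearts 26 of 37 fell, against 16.5% of all genes that fell and 34.3% that changed in either direction. The 15 members called in Ctrl were all among the 26 called in KO, which is 15 of 26 of the KO list. By class, 5 mRNAs, both rRNAs and 8 tRNAs fell in Ctrl, and 10 mRNAs, both rRNAs and 14 tRNAs fell in KO. The median log2 fold change over the 37 members was -0.30 in Ctrl and -0.42 in KO, and over all genes tested it was 0.00 in each. Members share precursor RNAs and are not independent of each other. All TAC libraries lay below all sham libraries for 5 members in Ctrl, against 9.97% of all genes tested, and for 27 in KO, against 16.6%.

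At the threshold of 0.05, 7 members stayed called in Ctrl under each of the 28 other fits, namely mt-Co1, mt-Nd5, mt-Nd6, mt-Rnr2, mt-Tw, mt-Tc and mt-Ty, of which mt-Tc does not pass a threshold of 0.01 (adjusted p 0.0118). In KO 11 did, the same 7 and mt-Cytb, mt-Ti, mt-Tg and mt-Th. Without Ctrl TAC 3 the number called in Ctrl was 24, and without Ctrl sham 1 it was 9. Without Ctrl TAC 2 or without Ctrl TAC 4 it was 10. Without the library labelled KO TAC 4 the number in KO was again 26, with no call lost or gained.

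**Figure D3:**
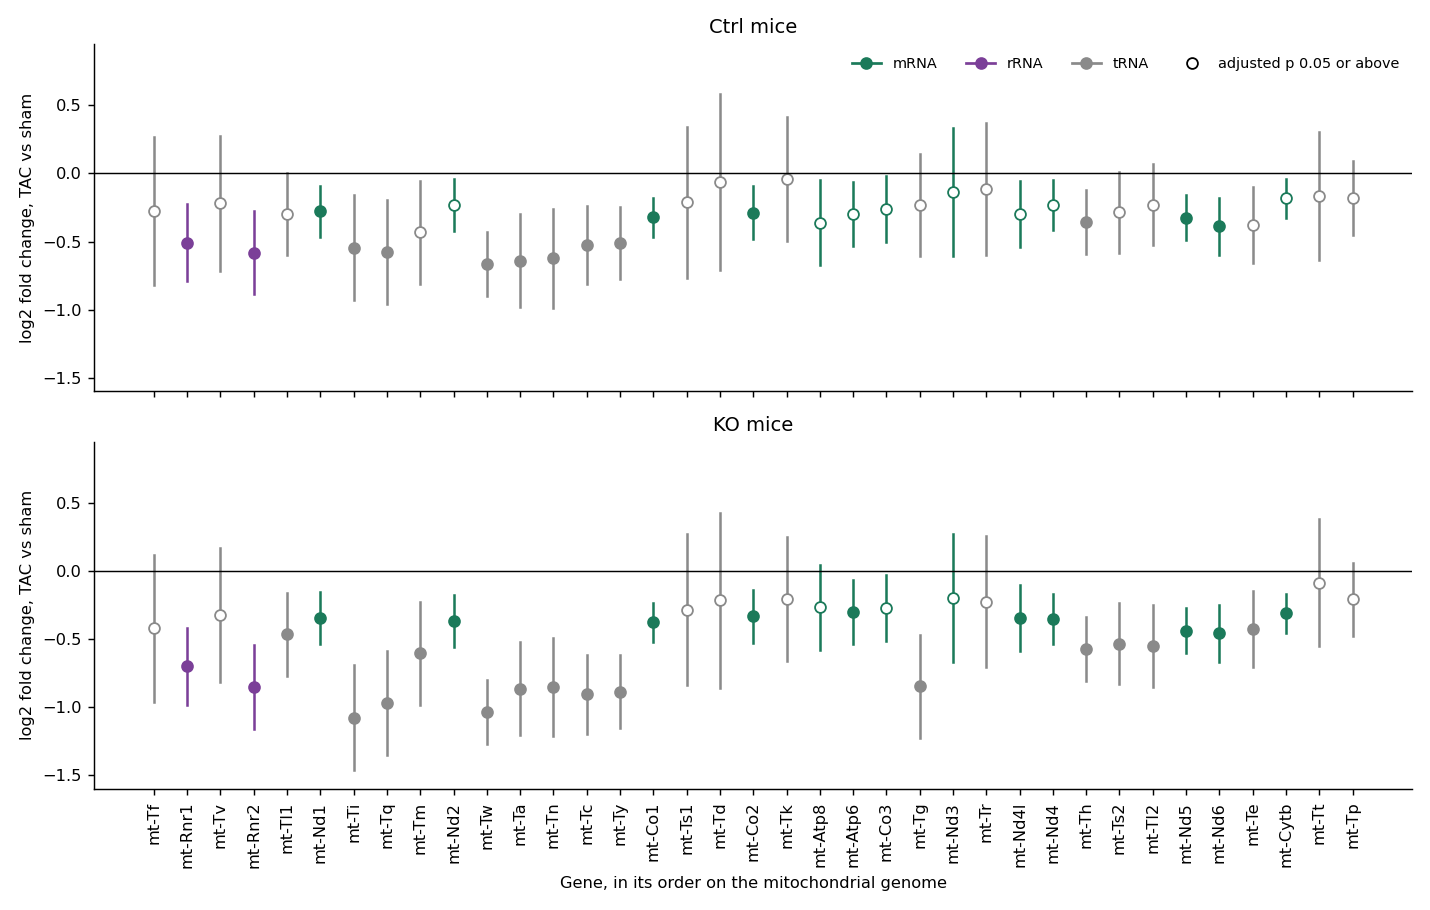
log2 fold change of TAC against sham for the 37 members in their order around the chromosome, in Ctrl and in KO hearts, with 95% confidence intervals from the edgeR fit. All points lie below 0 in this fit (among the 28 other settings, 8 put a member above 0 in Ctrl and 3 in KO), and the tRNAs between mt-Nd1 and mt-Co1 reach lowest, to -1.08 for mt-Ti in KO.

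Complex IV, cytochrome c oxidase, passes electrons to oxygen, and mt-Co1, mt-Co2 and mt-Co3 encode its core. The level of mt-Co1 (ENSMUSG00000064351, chrM:5328-6872) was 97899.7, 89209.6, 86419 and 91358 CPM in Ctrl sham libraries 1 to 4, and it was 90899.8, 94746, 89066 and 95413 CPM in KO sham libraries. After TAC it was 73096, 64252, 82892 and 71598 CPM in Ctrl libraries and 71804, 72624, 68589 and 72300.0 CPM in KO libraries. Every TAC library lay below every sham library of its genotype, and Ctrl TAC 3 was the highest of the TAC libraries. The log2 fold change of mt-Co1 was -0.32 ± 0.0683 (SE) in Ctrl (adjusted p 0.00248) and -0.38 ± 0.0683 in KO (adjusted p 0.000323), which is a change of -20.0% and -22.9%. mt-Co1 alone took 6.89% to 9.03% of all counts of a library. mt-Co2 fell by 0.29 on the log2 scale in Ctrl (adjusted p 0.0340) and by 0.33 in KO (adjusted p 0.00965), and the Ctrl call was lost with the nuclear copies added (log2 fold change -0.24, adjusted p 0.0706). mt-Co3 had log2 fold changes of -0.26 and -0.27 and was not called in either genotype (adjusted p 0.129 and 0.0795).

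Complex I, NADH dehydrogenase, takes electrons from NADH, and 7 mitochondrial mRNAs encode its membrane arm. Of these, 3 fell in Ctrl and 6 in KO. mt-Nd5 (ENSMUSG00000064367, chrM:11742-13565) was at 25592, 24261, 23326 and 21256 CPM in Ctrl sham libraries, 23386, 23247, 20561 and 24947 CPM in KO sham, 18954, 18315, 20788 and 17338 CPM in Ctrl TAC, and 16487, 15083, 18226 and 18246 CPM in KO TAC. The groups did not overlap in either genotype, and its log2 fold change was -0.32 ± 0.0795 (SE) in Ctrl (adjusted p 0.00702) and -0.44 ± 0.0796 in KO (adjusted p 0.000322). mt-Nd6 (ENSMUSG00000064368, chrM:13552-14070), the sole light-strand mRNA, was at 7739.8, 7242, 6501 and 6028 CPM in Ctrl sham libraries, 7156, 6571, 6276 and 7516 CPM in KO sham, 5323, 4599, 6442 and 4659.6 CPM in Ctrl TAC, and 4712, 4869, 5075 and 5387 CPM in KO TAC. Ctrl TAC 3 overlapped Ctrl sham, and the KO groups did not overlap. mt-Nd6 had the largest fall of the 13 mRNAs in both genotypes, by 0.39 on the log2 scale in Ctrl (adjusted p 0.00964) and by 0.46 in KO (adjusted p 0.00158).

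mt-Nd1 (ENSMUSG00000064341, chrM:2751-3707) was at 26072, 21117, 21811 and 21018 CPM in Ctrl sham libraries, 21882, 22512, 23436 and 24392 CPM in KO sham, 19289, 15428, 21913 and 17528 CPM in Ctrl TAC, and 17850.0, 18049, 17433 and 19353 CPM in KO TAC. Its highest value was in Ctrl sham 1, and Ctrl TAC 3 lay above 3 of the Ctrl sham libraries. mt-Nd1 fell by 0.28 on the log2 scale in Ctrl (adjusted p 0.0354) and by 0.34 in KO (adjusted p 0.00623). The Ctrl call was lost without Ctrl sham 1 (log2 fold change -0.20, adjusted p 0.133), without Ctrl TAC 2 (-0.20, adjusted p 0.105) and without Ctrl TAC 4 (-0.25, adjusted p 0.0981). mt-Nd2, mt-Nd4 and mt-Nd4l fell in KO, by 0.37, 0.35 and 0.34 on the log2 scale (adjusted p 0.00389, 0.00430 and 0.0289), and had log2 fold changes of -0.23, -0.23 and -0.30 in Ctrl (adjusted p 0.0820, 0.0687 and 0.0830). mt-Nd3 was not called in either genotype, with log2 fold changes of -0.14 ± 0.218 in Ctrl and -0.20 ± 0.218 in KO (SE), the widest error of any mRNA.

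Complex III, cytochrome bc1, has a single mitochondrial subunit, cytochrome b. Its mRNA mt-Cytb (ENSMUSG00000064370, chrM:14145-15288) was at 35291, 33857, 32661 and 33301 CPM in Ctrl sham libraries, 35331, 34495, 30739 and 35479 CPM in KO sham, 28681, 28053, 33908 and 28436 CPM in Ctrl TAC, and 26251, 26599.8, 27595 and 29209.5 CPM in KO TAC. In Ctrl, TAC libraries 1, 2 and 4 lay below all sham libraries and Ctrl TAC 3 lay among them. mt-Cytb fell by 0.31 on the log2 scale in KO (adjusted p 0.00149), and its log2 fold change in Ctrl was -0.18 ± 0.0674 (SE, adjusted p 0.0661), or -0.25 without Ctrl TAC 3 (adjusted p 0.00608). No nuclear copy of mt-Cytb met the identity threshold.

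Complex V, the ATP synthase, takes mt-Atp6 and mt-Atp8 from the mitochondrial genome, both in its membrane part. mt-Atp6 (ENSMUSG00000064357, chrM:7927-8607) was at 16615, 13381, 13028 and 13305 CPM in Ctrl sham libraries, 15300.2, 14487, 13559.7 and 15096 CPM in KO sham, 11321, 8929, 14263 and 11298 CPM in Ctrl TAC, and 12346, 11727, 10606 and 12784 CPM in KO TAC. The KO groups did not overlap, while Ctrl TAC 3 exceeded 3 of the Ctrl sham libraries. mt-Atp6 fell by 0.30 on the log2 scale in KO (adjusted p 0.0444), a call that was lost in 15 of the 28 other settings, and its log2 fold change was -0.30 in Ctrl (adjusted p 0.0680). The log2 fold changes of mt-Atp8 were -0.36 and -0.27 (adjusted p 0.0977 and 0.180).

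**Figure D4:**
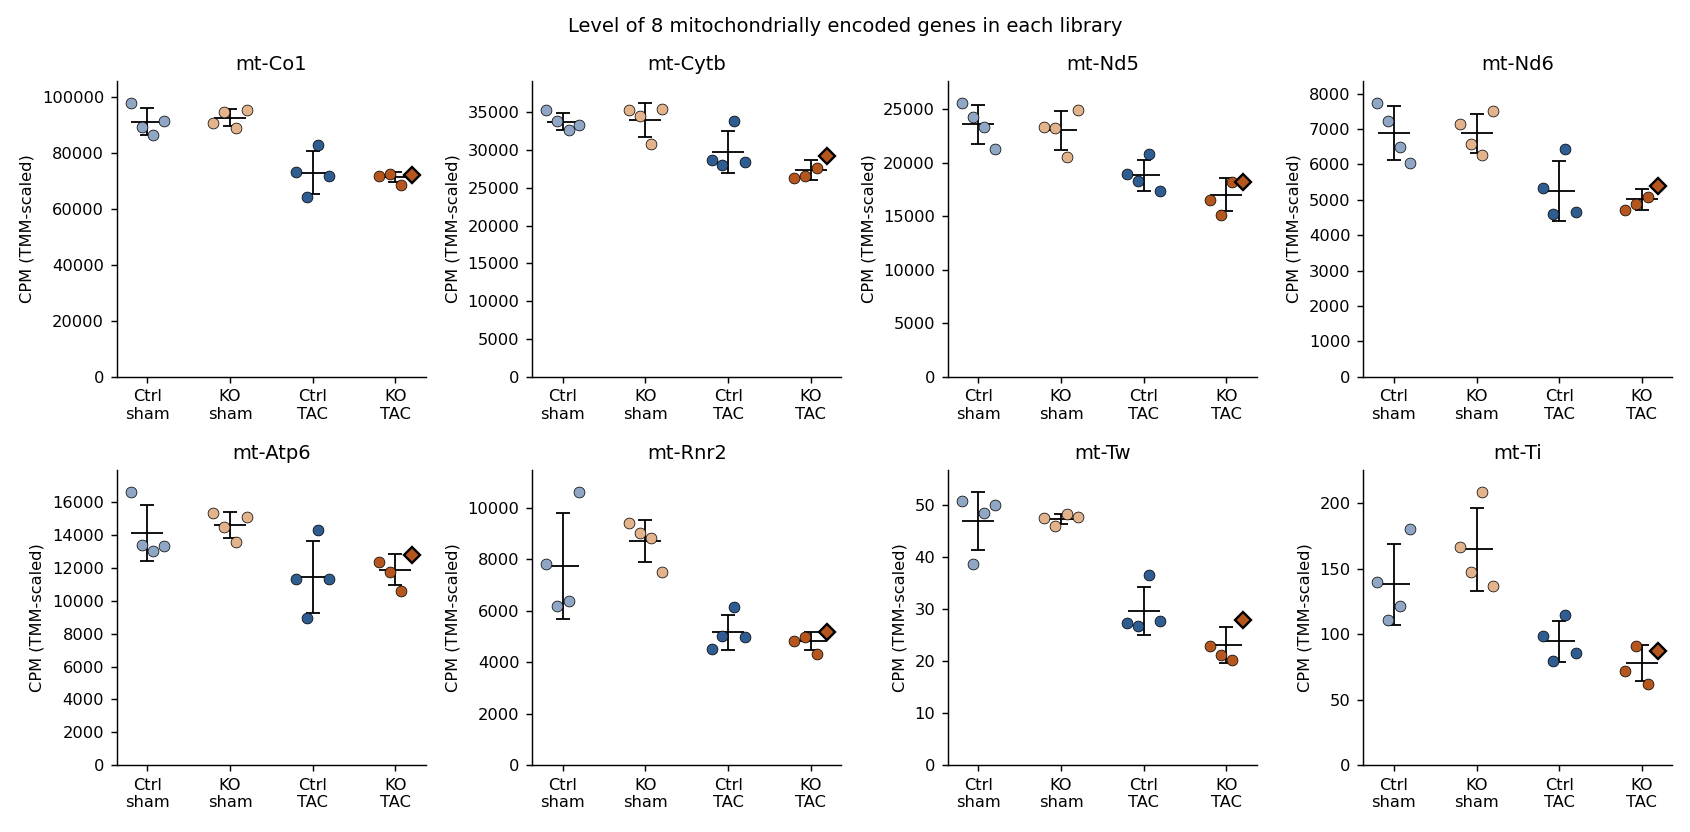
CPM of selected members in each of the 16 libraries, in their 4 groups, each panel with its own axis from 0 and bars for the group mean ± SD; the diamond is the library labelled KO TAC 4. Ctrl TAC 3 lies above the other Ctrl TAC libraries, with 33908 CPM of mt-Cytb and 36.5 CPM of mt-Tw.

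Both rRNAs fell in both genotypes, and with all libraries by more than any mRNA. mt-Rnr2 (16S rRNA of the large ribosomal subunit, ENSMUSG00000064339, chrM:1094-2675) was at 7809, 6175, 6379 and 10623 CPM in Ctrl sham libraries, 9412, 9024, 8841 and 7514 CPM in KO sham, 4532, 5026, 6128 and 4997 CPM in Ctrl TAC, and 4821, 4975, 4336 and 5178 CPM in KO TAC. Its log2 fold change was -0.58 ± 0.144 (SE) in Ctrl (adjusted p 0.00888) and -0.85 ± 0.144 in KO (adjusted p 0.000272), and sham and TAC libraries overlapped in neither. mt-Rnr1 (12S rRNA of the small subunit, ENSMUSG00000064337, chrM:70-1024) was at 3515, 2644, 2586.8 and 3847 CPM in Ctrl sham libraries, 3571, 3556, 3815 and 3099 CPM in KO sham, 2135, 1879, 2789 and 2051 CPM in Ctrl TAC, and 1999, 2276, 2017 and 2351 CPM in KO TAC. Ctrl TAC 3 overlapped Ctrl sham, and the fall was 0.51 on the log2 scale in Ctrl (adjusted p 0.0135) and 0.70 in KO (adjusted p 0.000759).

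The rRNA values of sham hearts moved with the run of animal numbers. Within sham, mt-Rnr2 was at 8841 to 10623 CPM in the 4 libraries whose animal numbers begin with 33 and at 6175 to 7809 CPM in the other 4, and mt-Rnr1 was at 3556 to 3847 CPM against 2586.8 to 3515 CPM. Among the libraries outside that run, mt-Rnr2 had a log2 fold change of -0.40 in Ctrl (adjusted p 0.0235) and -0.64 in KO (adjusted p 0.0118), and mt-Rnr1 of -0.40 (adjusted p 0.0647) and -0.52 (adjusted p 0.0889). In this fit KO sham is a single library, taken to vary like the other groups. The mRNA mt-Nd6 had values of -0.45 and -0.59 there (adjusted p 0.0124 and 0.0193), so outside that run the rRNAs did not fall by more than every mRNA. With a term for the run in the fit of all libraries, mt-Rnr2 was at -0.44 and -0.50 and mt-Nd6 at -0.44 and -0.61. Nuclear transcripts without poly(A) tails, which measure how much unselected RNA a library holds, summed to 117 to 141 CPM in sham and 145 to 165 CPM in TAC libraries. These sums use the unscaled library total and are not on the scale of the rRNA values. The TMM factors were 0.905 to 0.989 in sham and 0.980 to 1.075 in TAC libraries. KO sham 3 had a sum of 141 CPM and a factor of 0.968, and Ctrl TAC 1 had 145 CPM and 1.03. On the TMM scale KO sham 3 thus lies above Ctrl TAC 1, and the separation does not hold. Of the 14 genes of this list tested, 2 were higher in Ctrl and 1 in KO after TAC. Over all genes 20.0% and 34.3% changed. Within sham, KO sham 3 had the highest sum with an rRNA share of 1.22% and Ctrl sham 3 the lowest sum with 0.886%. The other sham libraries did not keep this order. Ctrl sham 2 had a sum of 130 CPM with the lowest rRNA share in sham, 0.869%. Ctrl sham 4 had 128 CPM with the highest share, 1.39%. The part of unselected RNA in the rRNA result was not tested.

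Relative to the mRNAs, the rRNAs changed by -0.25 on the log2 scale in Ctrl (exact permutation p = 0.171, adjusted 0.343) and by -0.45 in KO (exact permutation p = 0.0286, adjusted 0.114), with no overlap between the KO groups. This ratio also separated the sham libraries by the run of animal numbers, at -4.47 to -4.20 in the 4 libraries beginning with 33 and -4.93 to -4.74 in the other 4. Without Ctrl sham 4, the only Ctrl library of that run, the Ctrl change was -0.09 (exact permutation, adjusted p = 0.457), and the KO TAC mean differed by -0.20 from KO sham 4, the only KO sham library outside the run, a value with no test. The run and the sham operation cannot be told apart for the other KO sham libraries. The interaction of this ratio was -0.20 (permutation p = 0.342), or -0.36 without Ctrl sham 4 (permutation p = 0.0453), which has the highest rRNA share of the 16 libraries, 1.39%.

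Among the tRNA genes all 8 falls in Ctrl and 11 of the 14 in KO lay in 3 stretches where tRNA genes stand side by side. The cluster of mt-Tw, mt-Ta, mt-Tn, mt-Tc and mt-Ty (tRNAs for tryptophan, alanine, asparagine, cysteine and tyrosine), between mt-Nd2 and mt-Co1, fell in all 5 members in both genotypes, with a median log2 fold change of -0.62 in Ctrl and -0.89 in KO. The cluster of mt-Ti, mt-Tq and mt-Tm (isoleucine, glutamine and methionine), between mt-Nd1 and mt-Nd2, fell in 2 of 3 members in Ctrl and in 3 of 3 in KO (medians -0.55 and -0.97). The cluster of mt-Th, mt-Ts2 and mt-Tl2 (histidine, serine and leucine), between mt-Nd4 and mt-Nd5, fell in 1 of 3 and in 3 of 3 (medians -0.28 and -0.55). Of the 11 tRNA genes outside these clusters, none was called in Ctrl by edgeR (1, mt-Te, had an unadjusted p under 0.05 and was called by DESeq2), and mt-Tl1, mt-Tg and mt-Te were called in KO (medians -0.21 and -0.28). Another 2 pairs of tRNA genes stand side by side, mt-Ts1 with mt-Td and mt-Tt with mt-Tp, and none of these 4 was called in either genotype by edgeR. These clusters were described with the values in view, and their difference from the other tRNA genes was not tested.

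mt-Tw, whose sequence is given above, had the smallest adjusted p of all 37 members. It was at 50.7, 38.6, 48.4 and 50.02 CPM in Ctrl sham libraries, 47.5, 45.9, 48.2 and 47.7 CPM in KO sham, 27.3, 26.8, 36.5 and 27.8 CPM in Ctrl TAC, and 22.8, 21.2, 20.3 and 28.0 CPM in KO TAC. No TAC library reached the level of a sham library, and among KO TAC libraries the highest was the one labelled KO TAC 4. The log2 fold change was -0.66 ± 0.111 (SE) in Ctrl (adjusted p 0.000431) and -1.04 ± 0.112 in KO (adjusted p 2.41e-06), or -1.14 in KO without the library labelled KO TAC 4 (adjusted p 8.48e-07). Among the libraries outside the run of animal numbers beginning with 33 it was -0.64 and -1.05 (adjusted p 0.00813 and 0.00321).

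mt-Ti was at 139.9, 111, 122 and 181 CPM in Ctrl sham libraries, 166, 147, 209 and 137 CPM in KO sham, 99.0, 79.7, 115 and 85.4 CPM in Ctrl TAC, and 72.4, 90.9, 61.9 and 87.5 CPM in KO TAC. The KO groups were far apart, and in Ctrl the highest TAC library overlapped the lowest sham library. The log2 fold change was -0.55 ± 0.179 (SE) in Ctrl (adjusted p 0.0451), a call lost in 16 of the 28 other settings, and -1.08 ± 0.180 in KO (adjusted p 0.000347). As with the rRNAs, sham libraries of the run beginning with 33 had more mt-Ti, 147 to 209 CPM against 111 to 139.9 CPM, and outside that run the log2 fold change was -0.40 in Ctrl (adjusted p 0.104) and -0.81 in KO (adjusted p 0.0233). For mt-Tq next to it, on the other strand, the values were -0.58 and -0.97 (adjusted p 0.0346 and 0.000764).

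mt-Tg, between mt-Co3 and mt-Nd3, was at 2.27, 1.31, 1.77 and 1.86 CPM in Ctrl sham libraries, 2.21, 1.64, 2.08 and 2.21 CPM in KO sham, 1.55, 1.43, 1.76 and 1.41 CPM in Ctrl TAC, and 1.02, 1.09, 0.951 and 1.46 CPM in KO TAC. It fell in KO by 0.84 on the log2 scale (adjusted p 0.00130), and its log2 fold change in Ctrl was -0.23 ± 0.178 (SE, adjusted p 0.407). mt-Tg is among the least counted members. The 8 light-strand tRNA genes included 5 that fell in Ctrl and 6 that fell in KO (medians -0.52 and -0.86), and the 14 heavy-strand tRNA genes included 3 and 8. Over all 22, the lowest level in any library was 39 counts, of mt-Tf, and the highest 61981 counts.

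Cardinal itself was then compared within each operation. In sham hearts no member was called between KO and Ctrl by edgeR or DESeq2, none had an unadjusted p under 0.05, and the median log2 difference was 0.05. Of all 18275 genes 0% were called in this comparison by edgeR, and 479 had an unadjusted p under 0.05. The deleted gene itself was thus not called, although it had 173 to 265 counts in Ctrl sham and 17 to 35 in KO sham libraries. A lack of calls in this comparison therefore does not show a lack of difference. The 95% intervals of the 13 mRNAs reached from -0.39 to 0.55 on the log2 scale. In TAC hearts no member was called by edgeR and 1 by DESeq2, against 2.68% of all genes that were called and 1.32% that were called lower. The median was -0.07, and 26 of 37 estimates were below 0. An unadjusted p under 0.05 was found for 5 members, all tRNA genes and all lower in KO, namely mt-Tw, mt-Tg, mt-Th, mt-Ts2 and mt-Tl2. Over all genes tested 18.5% had such a p, which is above the share of the members. The 13 mRNAs had a median of -0.03 in this comparison, and 0.03 in sham.

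mt-Tw had the smallest adjusted p of these, 0.0920, with a log2 difference of -0.36 ± 0.112 (SE). It was called without the library labelled KO TAC 4 (-0.47, adjusted p 0.0317), without that library and Ctrl TAC 2 (-0.51, adjusted p 0.0487), and in DESeq2 with all libraries (-0.36, adjusted p 0.0336). Over all settings its adjusted p ranged from 0.0317 to 0.384, and the difference from -0.51 to -0.23. The latter value came from a model with a term for the animal numbers beginning with 25, which hold 3 of the 4 Ctrl TAC libraries and the library labelled KO TAC 4.

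Whether the response to TAC differed between genotypes was tested as an interaction. No member was called by edgeR or DESeq2, against 0.0109% of all genes, the smallest adjusted p was 0.376, and 2 members, mt-Tg and mt-Tw, had an unadjusted p under 0.05, against 11.1% of all genes. Without the library labelled KO TAC 4 no member was called by edgeR either. The TAC estimate was lower in KO than in Ctrl for 35 of 37 members (12 of 13 mRNAs, both rRNAs and 21 of 22 tRNA genes), with a median interaction of -0.14. The larger number of calls in KO than in Ctrl is therefore not shown to be a difference between the genotypes. The 4 Ctrl TAC libraries spread more widely than the 4 KO TAC libraries, with SDs of 7667 and 1858 CPM for mt-Co1. The edgeR fit shares its estimate of the spread of a gene over all groups, so this spread does not enter the Ctrl calls alone.

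The makeup of the mitochondrial mRNA pool was compared apart from its size, from counts without the nuclear copies. Reads that cannot be assigned between genes and copies leave the level of each share uncertain. After sham, mt-Co1 took 33.3% of the 13 mRNAs in Ctrl and 33.2% in KO hearts, and after TAC 32.4% and 32.7%. Over the 13 mRNAs and 4 comparisons, no share was called after adjustment over the genes, and 1 had an unadjusted p under 0.05: that of mt-Cytb, 12.4% in Ctrl sham and 13.2% in Ctrl TAC (exact permutation p = 0.0286, adjusted 0.371). The ratio of the light-strand mRNA mt-Nd6 to the 12 heavy-strand mRNAs changed by -0.11 on the log2 scale after TAC in each genotype, which did not pass the test (exact permutation, adjusted p = 0.343 for each).

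The nuclear genes for the same complexes were examined next. Of 73 nuclear subunits of complexes I, III, IV and V, 37 fell and none rose in Ctrl after TAC, and 65 fell and none rose in KO. The medians were -0.17 and -0.35 against 0.00 for all genes, of which 9.60% fell in Ctrl and 16.5% in KO. Without the library labelled KO TAC 4, 63 fell in KO. Between KO and Ctrl in TAC hearts 8 of the 73 were lower and none higher (median -0.13), against 1.32% of all genes that were lower. No mitochondrial mRNA was called. Without the library labelled KO TAC 4 the 8 became 2 (median -0.12). In sham none of the 73 was called by edgeR, as for every gene tested. These genes took 3.33% to 3.59% of counts in sham and 2.89% to 3.22% in TAC libraries.

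By complex, 16 of 37 nuclear complex I genes fell in Ctrl and 33 in KO, among them Ndufs1, a subunit of the electron-input arm (log2 fold changes -0.37 and -0.53, adjusted p 0.000200 and 1.74e-06). Ndufs7 was also lower in KO than in Ctrl after TAC (-0.33, adjusted p 0.0165). For complex III it was 5 and 8 of 9, with Uqcrc1, a core protein, at -0.26 and -0.46. For complex IV it was 7 and 11 of 12, with the heart and muscle isoform Cox7a1 at -0.39 and -0.66 and Cox6a2 at -0.27 and -0.46. For complex V it was 9 and 13 of 15, with Atp5a1, the catalytic-head alpha subunit, at -0.34 and -0.47. Complex II, which has no mitochondrially encoded subunit, fell in 3 and 4 of 4, with its flavoprotein Sdha at -0.44 and -0.69, and Sdha was lower in KO than in Ctrl after TAC (-0.29, adjusted p 0.0141). Without the library labelled KO TAC 4 the KO counts were 32, 7, 11 and 13 for complexes I, III, IV and V, and 4 for complex II.

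The ratio of the 13 mitochondrial mRNAs to the 73 nuclear subunits changed by -0.06 on the log2 scale in Ctrl and by 0.03 in KO after TAC (exact permutation, adjusted p = 0.762 for each). KO and Ctrl differed by 0.00 in sham and by 0.09 in TAC (exact permutation, adjusted p = 0.971 and 0.762), and the interaction was 0.09 (permutation p = 0.313). The ratio ranged from 2.72 to 3.05 on the log2 scale over the 16 libraries, from counts without the nuclear copies.

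**Figure D5:**
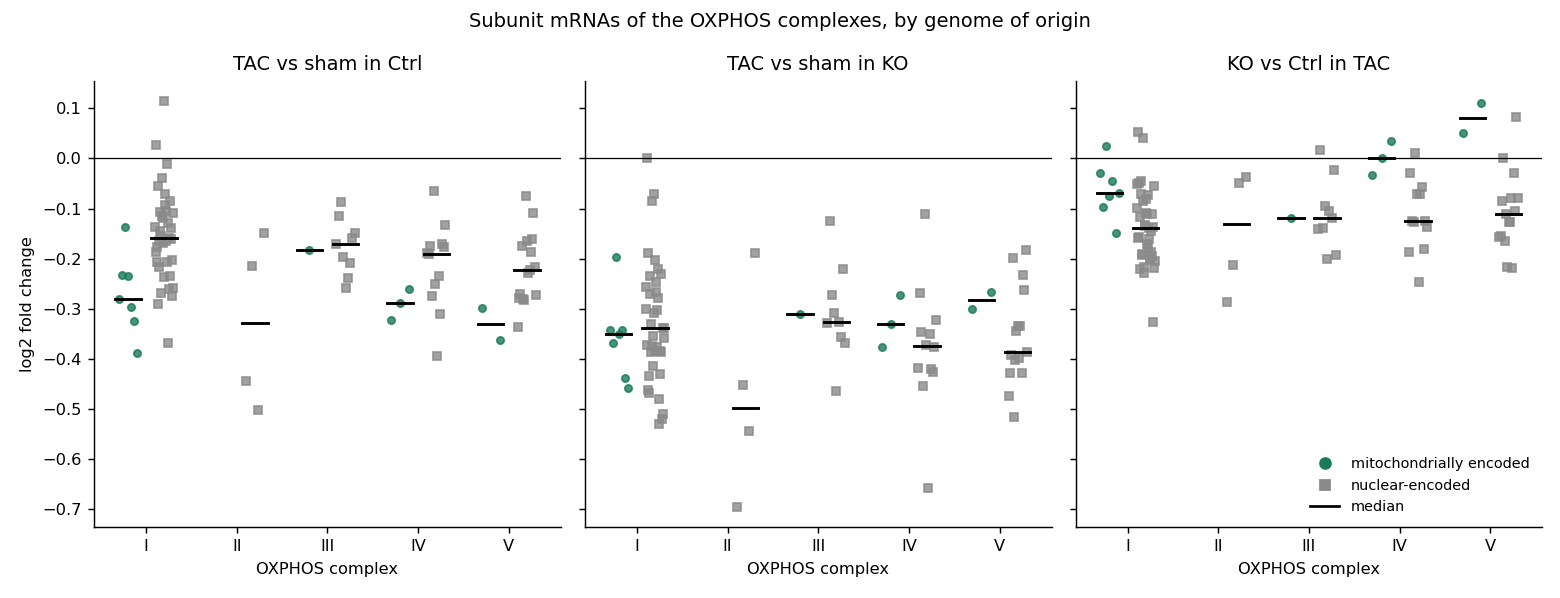
log2 fold change for subunits of complexes I to V, mitochondrially encoded and nuclear-encoded genes side by side, 1 point per gene with a line at the median. The panels are TAC against sham in Ctrl, TAC against sham in KO, and KO against Ctrl in TAC hearts. For TAC against sham, the complex I mitochondrial median is -0.28 in Ctrl and -0.35 in KO and the nuclear median -0.16 and -0.34.

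Nuclear genes that keep, copy and read the mitochondrial genome were taken from fixed lists. For replication and maintenance of the DNA, 10 of 25 genes fell in Ctrl, 14 fell in KO and none rose. Of all genes 9.60% fell in Ctrl and 16.5% in KO. Polg, the DNA polymerase, had a log2 fold change of -0.10 in Ctrl (adjusted p 0.131) and fell by 0.28 in KO (adjusted p 0.000110). Twnk, the replicative helicase, fell by 0.25 and 0.51 (adjusted p 0.0163 and 2.48e-05), and Ssbp1, the single-strand binding protein, had 0.06 in Ctrl (adjusted p 0.535) and fell by 0.18 in KO (adjusted p 0.0230). The largest falls of the list were of Slc25a33, a pyrimidine nucleotide carrier (-0.58 and -0.94), and of Mgme1, a nuclease of mitochondrial DNA (-0.43 and -0.68), with Mpv17 at -0.47 and -0.65. Endog, an endonuclease, was lower in KO than in Ctrl after TAC (-0.34, adjusted p 0.0141).

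For transcription, 1 of 10 genes fell in Ctrl and 5 in KO (4 without the library labelled KO TAC 4), and none rose. The Ctrl share is near the 9.60% of all genes that fell, and in KO 16.5% of all genes fell. Polrmt, the mitochondrial RNA polymerase, had log2 fold changes of 0.00 in Ctrl (adjusted p 0.979) and -0.17 in KO (adjusted p 0.0198). Tfam, which packages the DNA and starts transcription, was not called in either (0.10 and -0.07, adjusted p 0.199 and 0.319), and neither was the elongation factor Tefm (0.21 and -0.09, adjusted p 0.0831 and 0.408). Tfb2m, the initiation factor, had -0.11 in Ctrl (adjusted p 0.125) and fell by 0.14 in KO (adjusted p 0.0360), a value that was 0.025 without a scaling factor and whose call was lost without the library labelled KO TAC 4 (-0.14, adjusted p 0.0707). Mterf3, of the transcription termination factor family, fell by 0.24 and 0.25 (adjusted p 0.0315 and 0.0176), and Mterf2 fell in KO (-0.36, adjusted p 0.00156).

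For RNA processing, modification and stability, 2 of 43 genes rose and 6 fell in Ctrl, and 3 rose and 12 fell in KO (2 and 12 without the library labelled KO TAC 4), near the 20.0% and 34.3% of all genes that changed. Lrpprc, which holds mitochondrial mRNAs stable and aids their polyadenylation, fell by 0.25 in Ctrl (adjusted p 0.00246) and by 0.47 in KO (adjusted p 2.67e-06), and was lower in KO than in Ctrl after TAC (-0.22, adjusted p 0.0338). Its mean level was 208 CPM in Ctrl and 207 CPM in KO hearts after sham, and 175 and 149.8 CPM after TAC. Its partner Slirp was not called (-0.01 and -0.07, adjusted p 0.974 and 0.725), nor was Mtpap, the poly(A) polymerase (0.14 and 0.05, adjusted p 0.122 and 0.560). Hsd17b10, a subunit of the RNase P that cuts the 5′ ends of mitochondrial tRNAs, fell by 0.21 and 0.52 (adjusted p 0.0220 and 3.35e-06) and was lower in KO than in Ctrl after TAC (-0.26, adjusted p 0.0310). Genes that rose included Rexo2, an oligoribonuclease (0.31 and 0.32, adjusted p 0.000390 and 0.000122), and Trub2, a pseudouridine synthase (0.28 and 0.35, adjusted p 0.00731 and 0.000568).

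Of 33 translation factors and aminoacyl-tRNA synthetases of mitochondria, 7 fell in Ctrl, 23 fell in KO (21 without the library labelled KO TAC 4) and none rose. The medians were -0.10 and -0.23, and 9.60% and 16.5% of all genes fell. Gatb, of the complex that makes glutaminyl-tRNA, fell by 0.24 in Ctrl and 0.46 in KO (adjusted p 0.0135 and 2.45e-05), and Ears2, the glutamyl-tRNA synthetase, fell in KO by 0.42 (adjusted p 0.00231). Vars2 and Tars2, the valyl- and threonyl-tRNA synthetases, were lower in KO than in Ctrl after TAC (-0.29 and -0.19, adjusted p 0.0476 and 0.0333), and both calls were lost without the library labelled KO TAC 4 (-0.29 and -0.19, adjusted p 0.0873 and 0.0568). Of 12 regulators of mitochondrial biogenesis, 2 fell in Ctrl, and 7 fell and 1 rose in KO. The Ctrl count is near the 20.0% of all genes that changed in Ctrl, and in KO 34.3% of all genes changed. Ppargc1a, the coactivator PGC-1α, had -0.20 in Ctrl (adjusted p 0.595) and fell by 0.62 in KO (adjusted p 0.0464). Esrra, a nuclear receptor it works with, had -0.13 (adjusted p 0.108) and fell by 0.34 (adjusted p 9.12e-05), and the member that rose was Pprc1, a relative of PGC-1α (0.25, adjusted p 0.0276). None of these genes was called between KO and Ctrl in sham by edgeR.

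Marker genes of other cells moved with TAC, and their values stand here beside the mitochondrial ones. The sums use the unscaled library total and are not on the TMM scale of the mitochondrial CPM. The TMM factors were 0.905 to 0.989 in sham and 0.980 to 1.075 in TAC libraries. Divided by these factors, the cardiomyocyte sum of every Ctrl TAC library lies below that of every Ctrl sham library, although the unscaled sums overlap. The cardiomyocyte list (12 genes) summed to 66414 to 69896 CPM in Ctrl sham libraries and 65377 to 70407 CPM in those of KO sham. After TAC it summed to 64161 to 71158 CPM in Ctrl and 58689 to 60566 CPM in KO libraries, and 5 of its genes fell and 2 rose in Ctrl, and 8 fell and 1 rose in KO. The fibroblast list (10 genes) summed to 1214 to 1539, 1322 to 1419.9, 1938 to 2505 and 2706 to 3017 CPM in the same groups, with 5 genes higher in Ctrl and 8 in KO after TAC and none lower. The macrophage list (8 genes) summed to 173 to 253, 179 to 236, 287 to 332 and 312 to 435 CPM, with 5 and 8 genes higher. The endothelial list (8 genes) summed to 915 to 1018, 904 to 1134, 998 to 1232 and 1020.2 to 1102 CPM, with none called in Ctrl and 1 higher in KO. Of all genes tested, 20.0% changed in Ctrl and 34.3% in KO after TAC, and 9.60% and 16.5% fell. No defining marker of these lists was at 0 in all libraries. The part of the cell makeup in the mitochondrial results was not tested.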

How the data were processed

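The authors sequenced poly(A)-selected RNA as paired 150-base reads and deposited raw counts per Ensembl gene, 1 column per mouse, with no normalization. The submitters' processing notes name cutadapt 2.3, FastQC, HISAT2 2.1.0, edgeR 3.26.1 and GRCm38. The counting program, its annotation and its strand setting are not given in the sources used here.

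Symbols and positions came from GENCODE M21, which held 55227 of 55487 identifiers (99.5%). The others carried 0.00355% of counts. No library was a duplicate of another. Genes were filtered with filterByExpr (all 37 members passed), scaled by TMM and fitted with a mean for each of 4 groups in edgeR 4.0.16 (R 4.3.3, glmQLFit with the robust option, glmQLFTest). Benjamini-Hochberg adjustment ran over the 18275 genes tested, and genes with an adjusted p under 0.05 were called. The fit was tested on counts simulated from means and spreads over all 4 groups, with changes put into Ctrl TAC for genes averaging more than 100 counts. It recovered 97.0% of 100 changes of 1 log2 and 68.0% of 100 changes of 0.5 log2, with 11 false calls. Smaller changes, such as those of the mitochondrial mRNAs, were not simulated. Levels are CPM, mean ± SD, on the TMM-adjusted total for single genes and on the unscaled library total for sums over gene lists. Shares and ratios were compared by exact two-sided permutation tests (70 relabellings, 4900 for the interaction), adjusted over 4 comparisons.

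Replicate numbers follow sample order and pair nothing. The labels do not say that samples were independent beyond 1 mouse each, so p-values measure the spread between mice of a group. Depth limits no mRNA value here: the lowest mRNA count was 64903. Nuclear copies were found with blastn 2.17.0 among annotated transcripts.

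All members are named by rule, the 22 tRNAs because each had a mean of at least 1 CPM. Nuclear genes named are 12 preset ones and, per list and comparison, up to 2 rises and 2 falls of largest size among called genes whose mean log2 CPM reached 2, of which examples are given. The 22 lists (307 symbols, 303 matched) were written from general knowledge. The members and lists were chosen with earlier results of these data known.

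Alternatives were other size factors (RLE, none, TMM without mitochondrial genes), other count filters, a threshold of 0.01, the DESeq2 1.42.0 Wald test, terms for the runs of animal numbers, fits of the 8 libraries compared, the omission of each library, and omission of Ctrl TAC 2 and KO TAC 4 together. Adding nuclear copies, keeping animal numbers not beginning with 33, and counting the nuclear lists without KO TAC 4, were added after seeing the data.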

Additional observations from a re-analysis of the deposited data

Results flagged for a closer look

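Over the 37 members, the 4 shares of counts and the 3 ratios, 176 groups of 4 libraries were examined for a library far from the other 3, and chance flags about 1 group in 20. The library Ctrl sham 1 stood above the other Ctrl sham libraries for mt-Nd1 (26072 CPM, others 21018 to 21811), mt-Nd2 (20665 CPM, others 16819 to 17275), mt-Atp6 (16615 CPM, others 13028 to 13381) and mt-Nd4l (3264 CPM, others 2543 to 2572), and for the share of counts in tRNA genes (0.293%, others 0.266% to 0.269%). Ctrl TAC 3 stood above the other Ctrl TAC libraries for mt-Cytb (33908 CPM, others 28053 to 28681) and mt-Tw (36.5 CPM, others 26.8 to 27.8). The library labelled KO TAC 4 stood above the other KO TAC libraries for mt-Tm (82.6 CPM, others 51.9 to 56.1). KO TAC 3 was lowest for mt-Co2 (12474 CPM, others 13886 to 14155). KO sham 4 was highest for mt-Co3 (16875 CPM, others 15952 to 16003) and had the lowest rRNA share (0.995%, others 1.20% to 1.22%), and it is the KO sham library whose animal number does not begin with 33. The cause of these values was not tested.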

How the results depend on the processing

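The number of mitochondrial genes called in Ctrl after TAC, 15, was 6 at an adjusted p under 0.01, 9 without a count filter, 9 with a term for animal numbers beginning with 25, 7 in a fit of the 8 libraries compared and 9 among animal numbers not beginning with 33. Leaving out 1 library gave 9 to 24 in Ctrl (9 without Ctrl sham 1, 24 without Ctrl TAC 3), 22 to 27 in KO and 0 to 1 between KO and Ctrl in TAC. The number in KO, 26, was 11 among animal numbers not beginning with 33, where fewer libraries entered. Between KO and Ctrl in TAC, 1 gene (mt-Tw) was called without Ctrl TAC 2 and KO TAC 4 and 1 (mt-Tw) in DESeq2, and the median of the 13 mRNAs was -0.16 without those libraries. Without a scaling factor the median of all genes moved by 0.11 log2 in Ctrl and 0.16 in KO, the median of the 13 mRNAs in KO was -0.18 and Tfb2m in KO was 0.025, a change of sign. Leaving out 1 library gave an interaction of the rRNA to mRNA ratio of -0.36 to -0.11. Counts over all genes moved by more than 1.5 times in these settings: 2076 against 3652 in Ctrl at an adjusted p under 0.01, 3122 against 6271 in KO among animal numbers not beginning with 33, and in KO against Ctrl after TAC 12 (a term for numbers beginning with 25) to 1180 (DESeq2) against 489, with 63 without Ctrl TAC 2 and 84 without KO TAC 3. For the interaction 0 to 132 (DESeq2) were called against 2, and for KO against Ctrl in sham 0 to 3 (DESeq2) against 0. The other alternatives kept the direction and side of the threshold of the shares, ratios and medians. The cause of these shifts was not tested. No paired analysis was possible because replicate numbers come from sample order and no label links mice across groups.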
